A study of Mus musculus with 4 samples.

Results

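The 10 genes described here, Fos, Fosb, Fosl1, Jun, Junb, Egr1, Atf3, Ier3, Klf6 and Myc, are immediate early and AP-1 genes. They were chosen by name, for their family, from the 32285 genes counted in the sections, with earlier results of these data known. All 10 were detected and passed the filter on low counts. Spatial transcriptomes of 4 mouse kidney sections were compared, 2 from normal kidneys and 2 from ischemic kidneys, in a study that asked where T cells lie in normal and injured kidneys. All sections came from the left kidney of male WT C57BL/6J mice aged 7 to 8 weeks, were cut at 10 µm and lay on the capture areas of a single Visium slide. The ischemic kidneys were taken 24 h after 30 min of clamping of both renal pedicles, and the labels call the other kidneys normal controls without stating whether these animals had sham surgery. The study's methods describe technical replicates of each biological replicate. The labels do not say which mouse a section came from, so p-values measure only the spread between these sections, which may be technical.

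Immediate early genes are switched on within minutes of a stimulus from factors already present in the cell, without new protein synthesis, and their transcripts are short-lived. AP-1 is a dimer of a FOS or JUN family protein with a JUN or ATF partner, and it carries signals from the MAP kinases to genes of growth, repair, matrix turnover and inflammation. In the kidney, clamping and reperfusion of the renal pedicle is a classical stimulus of these genes in tubule cells. Fos, Fosb and Fosl1 encode FOS proteins, which bind DNA only with a partner, and Fosl1 (FRA-1) is itself a target of AP-1. Jun and Junb encode JUN proteins. Atf3 encodes a stress-induced bZIP factor, Egr1 and Klf6 encode zinc finger factors, Myc encodes a growth factor-induced regulator of metabolism and ribosome production, and Ier3 encodes a small protein induced by stress and NF-kappaB that acts on cell survival.

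Promoters in RefSeq's table for GRCm38.p6 matched 7 of the 10 genes, and Fosl1, Egr1 and Myc had no entry in it. The windows of Fos, Atf3, Jun and Klf6 are shown because they held an AP-1 or CRE element of the kind that FOS, JUN and ATF proteins bind, in capitals, within the 250 bases before the transcription start, read 5′ to 3′ on the gene's strand.
Fos: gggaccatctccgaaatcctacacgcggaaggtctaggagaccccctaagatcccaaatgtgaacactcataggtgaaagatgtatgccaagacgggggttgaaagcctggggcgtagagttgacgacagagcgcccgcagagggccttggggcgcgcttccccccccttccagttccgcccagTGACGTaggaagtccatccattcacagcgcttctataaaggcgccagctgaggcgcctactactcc
Atf3: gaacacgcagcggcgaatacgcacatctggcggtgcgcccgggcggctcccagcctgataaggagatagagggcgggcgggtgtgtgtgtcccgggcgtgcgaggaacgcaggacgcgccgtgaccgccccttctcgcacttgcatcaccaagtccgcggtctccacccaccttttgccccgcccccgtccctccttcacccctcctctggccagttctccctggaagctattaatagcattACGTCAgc
Jun: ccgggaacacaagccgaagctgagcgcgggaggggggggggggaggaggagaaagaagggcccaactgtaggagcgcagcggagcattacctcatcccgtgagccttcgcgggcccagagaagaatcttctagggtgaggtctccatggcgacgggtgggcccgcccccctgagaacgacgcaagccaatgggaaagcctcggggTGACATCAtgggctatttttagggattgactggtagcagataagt
Klf6: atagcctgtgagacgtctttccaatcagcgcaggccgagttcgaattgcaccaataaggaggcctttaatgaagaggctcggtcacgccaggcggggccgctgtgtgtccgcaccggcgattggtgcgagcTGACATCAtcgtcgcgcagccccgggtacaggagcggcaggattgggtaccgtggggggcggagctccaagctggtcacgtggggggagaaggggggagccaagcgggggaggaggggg
The Fos window is chr12:85473640-85473889 on the plus strand, and its TGACGT began at -66 from the start. The Atf3 window is chr1:191183334-191183583 on the minus strand, with the reverse complement of TGACGT at -8, and it lies inside the longer span that GENCODE gives Atf3. The windows of Jun, chr4:95052223-95052472 on the minus strand, and of Klf6, chr13:5861239-5861488 on the plus strand, held TGACNTCA at -45 and -119.

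Over the full table windows, which also take in the first 50 bases of the transcript, TGACGT stood on either strand in 7.51% of 32851 promoters, and TGACNTCA, which overlaps it where N is G, in 8.83%. The AP-1 element TGANTCA, found in 7.81% of promoters, and the CArG box bound by serum response factor, found in 1.63%, were in none of the 7 matched windows. These are matches of letters in a short window and show no binding.

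Depth ranged from 25957128 to 44528078 UMIs (unique molecular identifiers, 1 per captured transcript) per section over 2401 to 2682 tissue spots, with a median of 8656 to 16162.5 UMIs per spot, deepest in normal section 1. A spot holds several cells, so fewer cells of a type and less RNA per cell cannot be told apart. Levels are CPM, a gene's UMIs per 1000000 UMIs of the section or zone after scaling with edgeR's TMM factors. They compare sections for a gene and not genes with each other. Sums over marker lists, Havcr1 and Lcn2 by zone, edge ratios and correlations over spots used CPM without this scaling. The injury label was checked with Havcr1 (KIM-1) and Lcn2 (NGAL), classical genes of injured tubules, which were higher in ischemic sections by 9.64 and 8.78 on the log2 scale (edgeR, adjusted p = 6.7e-08 and 6.9e-08). Markers of other cells also moved. The summed CPM of 10 neutrophil genes was 1.62 and 2.68 in the normal sections against 182 and 183 in the ischemic ones, with 3 to 4 of these genes at 0 in the normal sections and 1 at 0 in the ischemic, and 8 of 8 proximal tubule genes were lower. Their part in the results on the 10 genes was not tested.

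Over whole sections, 7 of the 10 genes were higher in ischemic kidneys (background, 31.0% of the 15305 genes tested), Fos was lower (background, 29.7%), and Fosb and Egr1 did not pass the test. The median log2 fold change of the 10 genes was 1.11, beside 0.04 for all genes tested. Since the 10 genes were chosen with earlier results known, their counts beside the backgrounds, here and below, are a description. The rise was steepest for Fosl1, followed by Myc, Atf3 and Klf6. Fos, the gene after which the family is named, and Egr1, a widely used reporter of immediate early induction, were thus not among the genes that rose at 24 h.

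**Figure D1:**
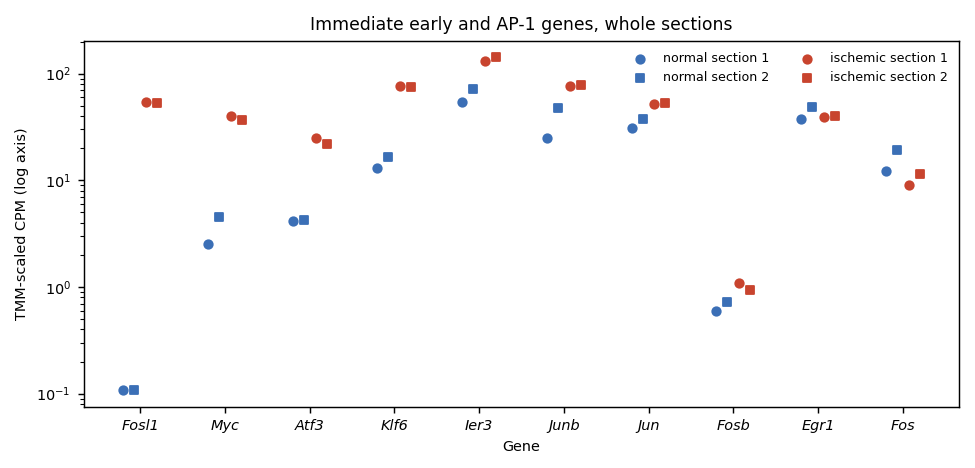
Levels of the 10 genes in the 4 whole sections, in TMM-scaled CPM on a log axis; each point is a section, blue for normal and red for ischemic, circles for section 1 and squares for section 2. Fosl1 separates the conditions most (0.108 and 0.109 against 53.9 and 53.5 CPM), while the points of Egr1 interleave and those of Fos lie lower in ischemic sections.

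Among the FOS genes, Fosl1 (chr19:5447547-5455946, GRCm38) was nearly silent in normal kidneys. Its level was 0.108 and 0.109 CPM in normal and 53.9 and 53.5 CPM in ischemic sections, from 4 and 3 against 1831 and 1534 UMIs. The groups were far apart and the sections within a group nearly equal. The ratio of summed counts, each over its total UMIs, was 609, with an exact 95% counting interval of 295 to 1515, and the edgeR adjusted p was 2.11e-08. Intervals and floors given here cover counting error only.

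Fos stood at 12.3 and 19.1 CPM in normal and 9.10 and 11.4 CPM in ischemic sections. Both ischemic sections lay below both normal sections, by a margin smaller than the gap between the normal sections. The log2 fold change was -0.61 (SE 0.20, edgeR adjusted p = 0.0265). This call was lost when ischemic section 1 was left out (-0.44, adjusted p = 0.115) and when library totals replaced TMM (-0.37, adjusted p = 0.277). Library totals moved the median of all genes from 0.04 to 0.31 and the calls from 4737 higher and 4542 lower to 5750 higher and 2829 lower. On that scale the Fos groups overlapped, at 10.2 and 19.0 CPM in normal and 10.0 and 12.6 CPM in ischemic sections. Fosb was scarce throughout, at 0.596 and 0.725 CPM in normal and 1.09 and 0.942 CPM in ischemic sections, and its difference of 0.64 on the log2 scale did not pass the test (SE 0.31, edgeR adjusted p = 0.106).

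Both JUN genes rose. Junb was at 25.1 and 47.5 CPM in normal and 75.8 and 77.9 CPM in ischemic sections, a log2 fold change of 1.09 (SE 0.23, edgeR adjusted p = 0.00321). Its normal sections were unequal, with section 2 at 1.89 times section 1, but both lay below the ischemic sections. Jun was at 31.2 and 37.3 against 52.2 and 52.6 CPM, a rise of 0.61 on the log2 scale (SE 0.11, edgeR adjusted p = 0.00103). Atf3, which can pair with JUN proteins, rose from 4.17 and 4.28 to 25 and 21.8 CPM, a log2 fold change of 2.47 (SE 0.12, edgeR adjusted p = 6.13e-07). For Jun and Atf3, too, the groups did not overlap.

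Of the other factors, Myc (chr15:61985391-61990374) had the largest log2 fold change after Fosl1. It went from 2.55 and 4.49 CPM in normal to 40.5 and 36.7 CPM in ischemic sections, 3.49 on the log2 scale (SE 0.20, edgeR adjusted p = 1.14e-06). Klf6 went from 13.2 and 16.4 to 75.8 and 74.8 CPM (log2 fold change 2.35, SE 0.12, edgeR adjusted p = 6.71e-07), and Ier3 from 53.6 and 71.9 to 132 and 142 CPM (1.13, SE 0.15, edgeR adjusted p = 0.000166). In all 3 genes the ischemic sections were close to each other and above both normal sections.

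In Egr1 the groups overlapped. Overlap of groups is given for each gene as a description, and its share over all genes is not given here. It was at 37.2 and 48.4 CPM in normal and 39.1 and 40.3 CPM in ischemic sections, so the ischemic sections lay between the normal ones. The log2 fold change was -0.11 (SE 0.13, edgeR adjusted p = 0.485). Leaving out normal section 1 gave -0.28, which passed the test (adjusted p = 0.00173), and leaving out normal section 2 gave 0.06. The 10 genes were at least as high in normal section 2 as in normal section 1, at 1.00 to 1.89 times its level, so for the genes with small differences the choice of normal section mattered.

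The share of spots with a UMI was compared after each spot was thinned to 2000 UMIs. Fosl1 was then found in 0.0389% of 2568 spots of normal section 1 (exact 95% interval 0.000986 to 0.217%) and in 0 of 2532 spots of normal section 2, where the interval reached 0.146%. In ischemic sections it was in 9.43% (8.28 to 10.7%) and 9.45% (8.33 to 10.7%) of spots. Egr1, at 7.36% and 10.3% of normal and 9.43% and 9.17% of ischemic spots, did not separate the conditions. Without thinning, Fosl1 was in 0.153% and 0.112% of normal and 38.2% and 30.9% of ischemic spots.

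The layout of the kidney was then taken into account. Each spot was given to cortex, outer stripe or inner stripe of the outer medulla, inner medulla or pelvis by marker genes of these zones, none of which is among the 10 genes, scored over the spot and its up to 6 neighbours. Cortex took 45.0% and 43.3% of the spots in normal and 39.7% and 36.5% in ischemic sections. Outer stripe took 30.7% and 30.6% against 25.9% and 26.1%, and inner stripe 14.1% and 12.8% against 17.9% and 20.9%. Inner medulla took 5.12% and 8.35% against 12.2% and 11.5%, and pelvis 4.41% to 5.03% of each section. A zone may therefore not hold the same tissue in both conditions. All 6 cortex, 5 outer stripe and 4 inner stripe markers were lower in ischemic than in normal sections. Of the 6 pelvis markers 5 were lower, while of the 5 inner medulla markers 2 were higher and 1 lower. Zones were therefore ranked within each section, and how far this moved borders between conditions was not tested. The pelvis was the least certain, since only 28.3% and 28.5% of its ischemic spots kept that zone when neighbours were left out.

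**Figure D2:**
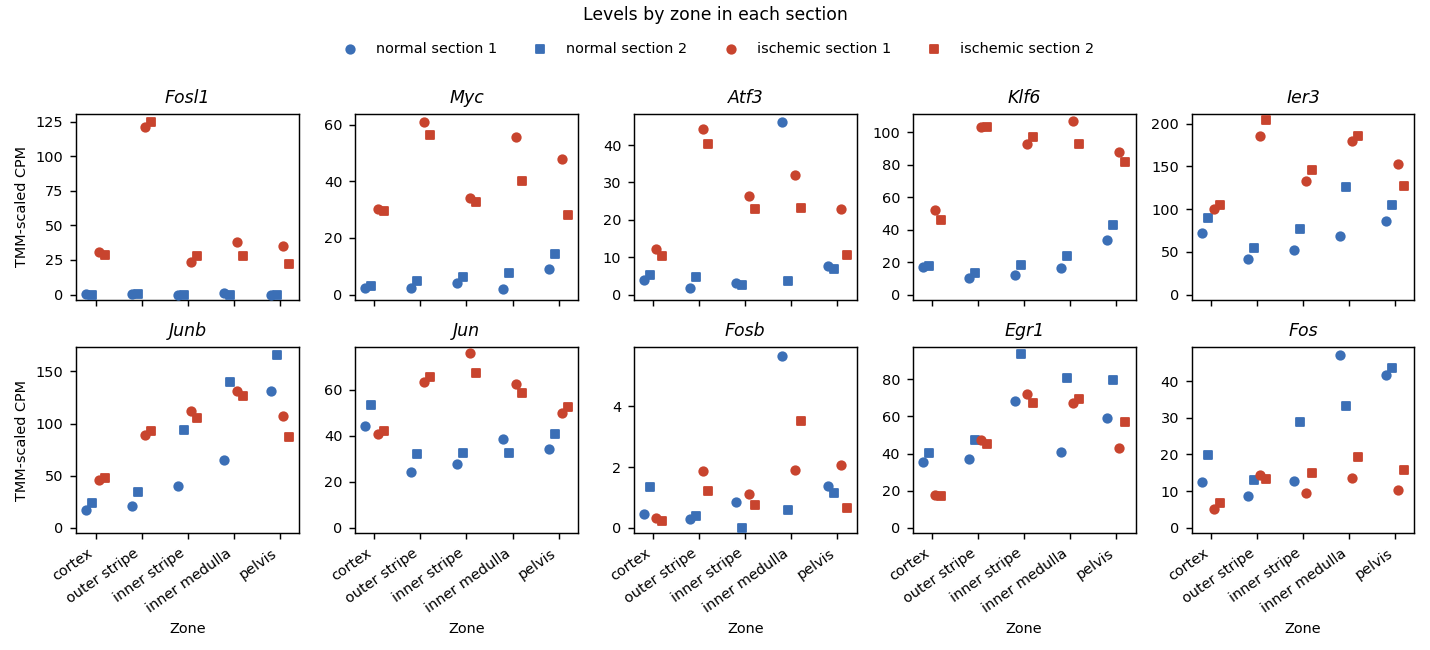
Levels of the 10 genes by zone, in TMM-scaled CPM on linear axes that differ between panels; each point is a section's zone, blue for normal and red for ischemic, circles for section 1 and squares for section 2. Fosl1 reaches 121 and 125 CPM in the ischemic outer stripe and stays at 22.2 to 38.1 CPM in the other ischemic zones, while Egr1 is lowest in the ischemic cortex, at 17.9 and 17.0 CPM.

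Ischemic and normal sections were also compared zone by zone. This fit had no section term, so the zones of a section, which share its library, counted as separate values. Its p-values may therefore be too small. In the outer stripe, which holds the S3 proximal tubule and is known to be most exposed to ischemia, 8 of the 10 genes were higher in ischemic sections (background, 27.4% of 14174 genes tested) and none was lower (background, 29.5%). The cortex had 5 higher (background, 20.2%) and 2 lower (background, 19.9%), the inner stripe 6 higher (background, 22.2%) and none lower (background, 25.9%), the inner medulla 5 higher (background, 13.9%) and 1 lower (background, 21.2%), and the pelvis 3 higher (background, 10.7%) and 1 lower (background, 14.6%). Fosl1, Klf6 and Myc were higher in all 5 zones. Of the 50 pairs of gene and zone, 27 were higher and 4 lower. The 4 became 10 without normal section 1, 1 without ischemic section 1 and 2 without ischemic section 2.

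In the outer stripe, Fosl1 was at 0.0971 and 0.384 CPM in normal and 121 and 125 CPM in ischemic sections. The summed counts were 4 and 2199 UMIs, a ratio of 743 with an exact 95% counting interval of 290 to 2731. The other zones had fewer UMIs and wider intervals. The ratio was 462 (127 to 3827) in the cortex, from 2 against 613 UMIs, and 102 (18 to 4031) in the inner medulla, from 1 against 199. With no UMI in normal sections, Fosl1 was at least 84.5-fold higher in the ischemic inner stripe and at least 32.2-fold higher in the ischemic pelvis, against a floor of 3 counts over the normal sections.

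Atf3 in the outer stripe was at 1.85 and 4.73 CPM in normal and 44.2 and 40.3 CPM in ischemic sections (log2 fold change 3.75, SE 0.44, edgeR adjusted p = 6.03e-07). Myc was at 2.14 and 4.73 against 61.0 and 56.5 CPM (4.15, SE 0.26, edgeR adjusted p = 2.23e-10), and Klf6 at 10.2 and 13.2 against 103 and 103 CPM (3.15, SE 0.17, edgeR adjusted p = 1.97e-11). All 3 had their largest estimate in this zone, and their ischemic sections were well apart from the normal ones. Ier3 rose by 2.03, Junb by 1.74 and Jun by 1.20 on the log2 scale in the same zone. Fosb rose by 2.15 (SE 0.74, edgeR adjusted p = 0.0188), a call made from 0.291 and 0.384 against 1.86 and 1.21 CPM and lost when normal section 1 or either ischemic section was left out.

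In the cortex Egr1 and Fos fell. Egr1 was at 35.2 and 40.0 CPM in the normal and 17.9 and 17.0 CPM in the ischemic cortex, a log2 fold change of -1.10 (SE 0.21, edgeR adjusted p = 0.000283) that passed the test with each section left out in turn. Fos was at 12.5 and 19.8 against 5.20 and 6.81 CPM (-1.42, SE 0.31, edgeR adjusted p = 0.00107), a call lost without ischemic section 1 (-1.22, adjusted p = 0.0806). In both genes the groups did not overlap in the cortex. Junb rose there by 1.22 and Atf3 by 1.32 (edgeR adjusted p = 0.00366 and 0.0193), and both calls were lost when either ischemic section was left out, that of Atf3 also with DESeq2 (1.21, adjusted p = 0.131), while Klf6 rose by 1.53 and Myc by 3.48. Jun and Ier3, with log2 fold changes of -0.23 and 0.34, did not pass the test in the cortex.

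In the inner stripe, Jun was at 27.8 and 32.5 CPM in normal and 75.9 and 67.4 CPM in ischemic sections, a log2 fold change of 1.26 (SE 0.15, edgeR adjusted p = 1.62e-06) beside 1.20 in the outer stripe. Atf3 rose there by 3.14, Klf6 by 2.67, Myc by 2.74 and Ier3 by 1.13, and these calls held with each section left out. Junb in that zone was at 40.6 and 93.8 against 112 and 106 CPM. Its 0.73 missed the threshold (edgeR adjusted p = 0.057) beside normal sections that were far from each other, and the difference was 1.42 and passed the test without normal section 2 (adjusted p = 1.11e-10).

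In the inner medulla, Jun, Klf6, Myc and Ier3 rose by 0.78, 2.28, 3.14 and 0.88, and Fos fell by 1.26 on the log2 scale (edgeR adjusted p = 0.0144). Fos was at 47.2 and 33.3 CPM in normal and 13.5 and 19.4 CPM in ischemic sections, and its call was lost without either ischemic section and with library totals (-1.08, adjusted p = 0.0756). The call on Ier3 was lost without either ischemic section, and that on Jun without ischemic section 1. In the pelvis, Klf6 and Myc rose by 1.14 and 1.67, and Fos, at 41.7 and 43.5 against 10.4 and 15.7 CPM, fell by 1.70 (edgeR adjusted p = 0.00714). The call on Fos in the pelvis was lost without either ischemic section and that on Myc without ischemic section 1. With zones scored without neighbours neither passed, at -1.15 for Fos (adjusted p = 0.117) and 1.29 for Myc (adjusted p = 0.0568). Although Fos was lower in the cortex, inner medulla and pelvis, the outer stripe held 8.64 and 13.2 CPM in normal and 14.3 and 13.3 CPM in ischemic sections, a difference of 0.37 that did not pass the test (edgeR adjusted p = 0.311). Without normal section 1 it was -0.04, and without normal section 2 it was 0.68 and passed (adjusted p = 0.00818).

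**Figure D3:**
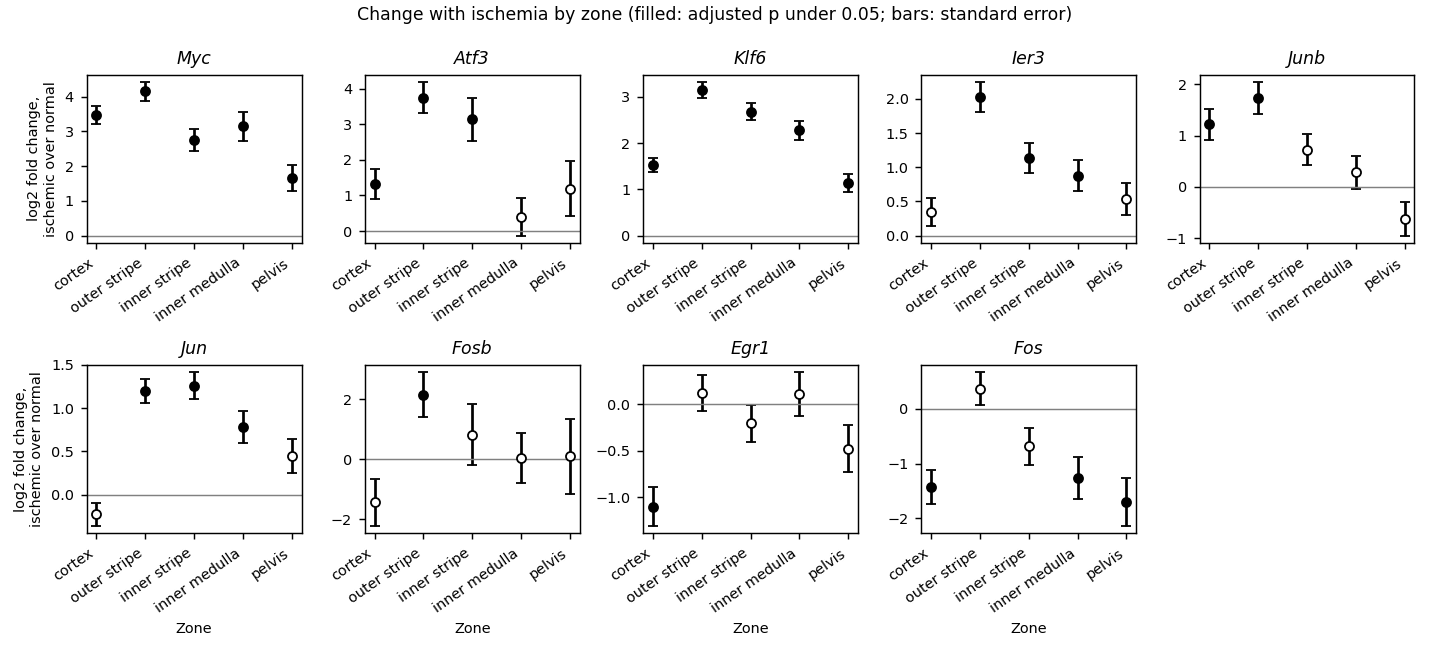
Log2 fold change of ischemic over normal sections in each zone for 9 of the genes (edgeR estimate, bars are standard errors, filled points have an adjusted p under 0.05); the y axes differ between panels. Fosl1 is left out because it had 0 to 4 UMIs in the normal zones. Atf3, Myc, Klf6, Ier3, Junb and Fosb have their highest point in the outer stripe, and Egr1 and Fos are below 0 with filled points in the cortex.

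The inner medulla of normal section 1 stood apart. Atf3 was at 46.2 CPM there and at 3.56 CPM in that of normal section 2, with 32.1 and 23.3 CPM in the ischemic sections, and Fosb was at 5.66 against 0.594 CPM. The same zone of normal section 1 held 5894 CPM of 4 adipocyte genes (1132 in normal section 2), 3429 CPM of 6 smooth muscle genes (940) and 47938 CPM of 4 hemoglobin genes (17014). Spots at the tissue edge of normal section 1 had 6.54 times the Atf3 of interior spots, and those of normal section 2 1.04 times. The difference of Atf3 between conditions in the inner medulla was 0.41 (edgeR adjusted p = 0.596) with all sections, 3.02 (adjusted p = 1.25e-05) without normal section 1 and -0.73 (adjusted p = 0.0535) without normal section 2. The part of these other tissues in the Atf3 signal was not tested.

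For some of the other genes the edge was also higher in normal sections. In normal sections 1 and 2, edge spots held 2.31 and 1.89 times the Myc of interior spots, 1.68 and 1.65 times the Junb and 2.04 and 1.35 times the Fos. Klf6 (1.73 and 1.36) and Jun (1.60 and 1.19) were above 1 as well, while Ier3 (0.81 and 0.92) was below, Egr1 (1.10 and 0.92) and Fosb (3.10 and 0.96) differed between the normal sections, and Fosl1 had no UMI at normal edges. In ischemic sections, edge spots held 0.43 to 1.08 times the interior level over all 10 genes, with only Fosb in ischemic section 2 above 1. Fosb had 5 and 3 UMIs at the edges of normal and 2 and 4 at those of ischemic sections, too few for its ratios to be read. Edge and interior spots were not matched by zone, here or for Atf3 above. The part of the zones in these ratios was not tested.

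The zones were next compared within a condition, with a term for each section, so that each zone was set against the cortex of its own section. In ischemic kidneys all 10 genes were higher in the outer stripe than in the cortex (background, 16.9%). The log2 differences ran from 0.64 for Jun to 2.33 for Fosb, with 2.03 for Fosl1 (SE 0.13, edgeR adjusted p = 2.54e-09) and 1.90 for Atf3. The 10 calls became 7 without ischemic section 1, where Atf3, Fosb and Fos were lost, and 8 without ischemic section 2, where Atf3 and Fosb were lost. In normal kidneys none was higher in the outer stripe (background, 12.5%), and Jun, Ier3 and Klf6 were lower, by -0.79, -0.76 and -0.57 (background, 10.3%). Without normal section 1 the call on Klf6 was lost (-0.41) and Junb became a higher call. Fos, at -0.56 with all sections (edgeR adjusted p = 0.0634), became a lower call without either normal section, as did Atf3 without normal section 2. The summed neutrophil genes were also higher in the ischemic outer stripe, at 325 and 328 CPM, than in the ischemic cortex, at 69.1 and 82.5 CPM, and stood at 1.35 to 1.65 CPM in both zones of normal sections. Their part in these differences was not tested.

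Deeper zones of ischemic kidneys were also above the cortex, in 7 genes in the inner stripe (background, 23.0%), 9 in the inner medulla (background, 20.7%) and 5 in the pelvis (background, 16.5%), and none was below it in any of the 4 zones (background, 19.3%, 26.5%, 24.9% and 20.1% from the outer stripe inward). Over the 4 zones this made 31 of 40 pairs, and 19 without ischemic section 1. Egr1 had its highest ischemic levels inside the kidney, at 72.0 and 67.0 CPM in the inner stripe and 67.0 and 69.4 CPM in the inner medulla, against 47.0 and 45 CPM in the outer stripe. These 2 inner zones did not differ beyond the spread between sections, and each was above the cortex, by 1.99 and 1.96 on the log2 scale (edgeR adjusted p = 1.4e-10 and 6.39e-10). Fosl1 had another order. It was highest in the outer stripe, and the inner stripe, inner medulla and pelvis, with log2 differences of -0.23, 0.14 and -0.08 from the cortex (edgeR adjusted p = 0.255, 0.561 and 0.811), could not be told from the cortex.

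In normal kidneys Junb was higher toward the centre. It was at 17.0 and 23.6 CPM in the cortex, 40.6 and 93.8 CPM in the inner stripe, 65.1 and 140 CPM in the inner medulla and 131 and 166 CPM in the pelvis. The order was the same in both normal sections, and Junb was 2.86 above the cortex in the pelvis on the log2 scale (SE 0.16, edgeR adjusted p = 1.56e-11). In normal kidneys 3 of the 10 genes were higher than in the cortex in the inner stripe (background, 14.2%), 4 in the inner medulla (background, 19.6%) and 5 in the pelvis (background, 24.0%), with Junb and Egr1 in all 3 zones. The call on Egr1 in the inner medulla was lost without normal section 2, and that on Myc in the inner stripe was lost with each of the 4 sections left out. Jun was lower than in the cortex in each of the 3, by -0.68, -0.49 and -0.38 (background, 15.0%, 20.6% and 22.9%), and with library totals the last was 0.077. Its call in the pelvis was lost without normal section 2 or either ischemic section, and that in the inner medulla without normal section 2. Ier3 was lower in the normal inner stripe (-0.36, edgeR adjusted p = 0.0273), a call that was lost without either ischemic section and turned to 0.37 (adjusted p = 0.0105) with zones scored without neighbours. The call on Atf3 in the normal inner medulla, 2.2, turned to -0.72 without normal section 1.

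Whether the change with ischemia differed between zones was tested as an interaction. In the outer stripe 7 of the 10 genes had a higher log2 fold change than in the cortex (background, 8.06% of genes tested) and none a lower one (background, 13.5%). These were Fosb (3.59), Atf3 (2.43), Fos (1.79), Ier3 (1.69), Klf6 (1.63), Jun (1.43) and Egr1 (1.24), as differences of log2 fold changes. For Egr1 and Fos the cortex was lower with ischemia (-1.10 and -1.42) while the outer stripe, at 0.13 and 0.37, did not pass the test. The 0.13 of Egr1 ranged from -0.15 to 0.30 with each section left out. Without TMM scaling, Egr1 in the outer stripe was at 24.7 and 37.1 CPM in normal and 44.7 and 42.8 CPM in ischemic sections, so that the groups did not overlap. For Ier3, Klf6, Jun and Egr1 the call held with each section left out. That of Atf3 was lost without either ischemic section, that of Fos without ischemic section 1, and that of Fosb without normal section 2 or either ischemic section. The difference for Junb was 0.54 (SE 0.20, edgeR adjusted p = 0.0642), for Myc 0.71 (SE 0.31, adjusted p = 0.115) and for Fosl1 0.73 (SE 2.15, adjusted p = 0.858), the last with 2 and 4 UMIs in the normal cortex and outer stripe.

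Egr1, Ier3, Jun and Klf6 also had higher log2 fold changes than in the cortex in the inner stripe (4 genes, background 5.15%) and in the inner medulla (4 genes, background 3.32%). Egr1 itself did not pass the test between conditions in these zones, at -0.21 and 0.11. With each section left out, these values ranged from -0.40 to 0.021 and from -0.18 to 0.74, so they depended on the sections kept. In the inner stripe the calls on Ier3 and Egr1 were lost without either ischemic section. In the inner medulla those on Ier3 and Klf6 were lost without either ischemic section, that on Klf6 also without normal section 1, and that on Jun without ischemic section 1. Jun had a higher value than in the cortex in the pelvis (1 gene, background 3.43%), where its own 0.45 did not pass the test (edgeR adjusted p = 0.101), and this call was lost without normal section 2 or either ischemic section. Junb had a lower log2 fold change than in the cortex in the inner medulla (1 gene, background 9.7%), a call lost without normal section 2 or either ischemic section. In the pelvis Junb and Myc had lower ones (2 genes, background 6.53%), and the call on Myc was lost without normal section 2 or ischemic section 2. Junb there was at 131 and 166 CPM in normal and 107 and 87.6 CPM in ischemic sections, against a rise from 17.0 and 23.6 to 46.2 and 47.9 CPM in the cortex. Over all zones 16 differences were higher and 3 lower. The 16 became 7 without ischemic section 1 and 9 without ischemic section 2, and the 3 became 1 without ischemic section 2.

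**Figure D4:**
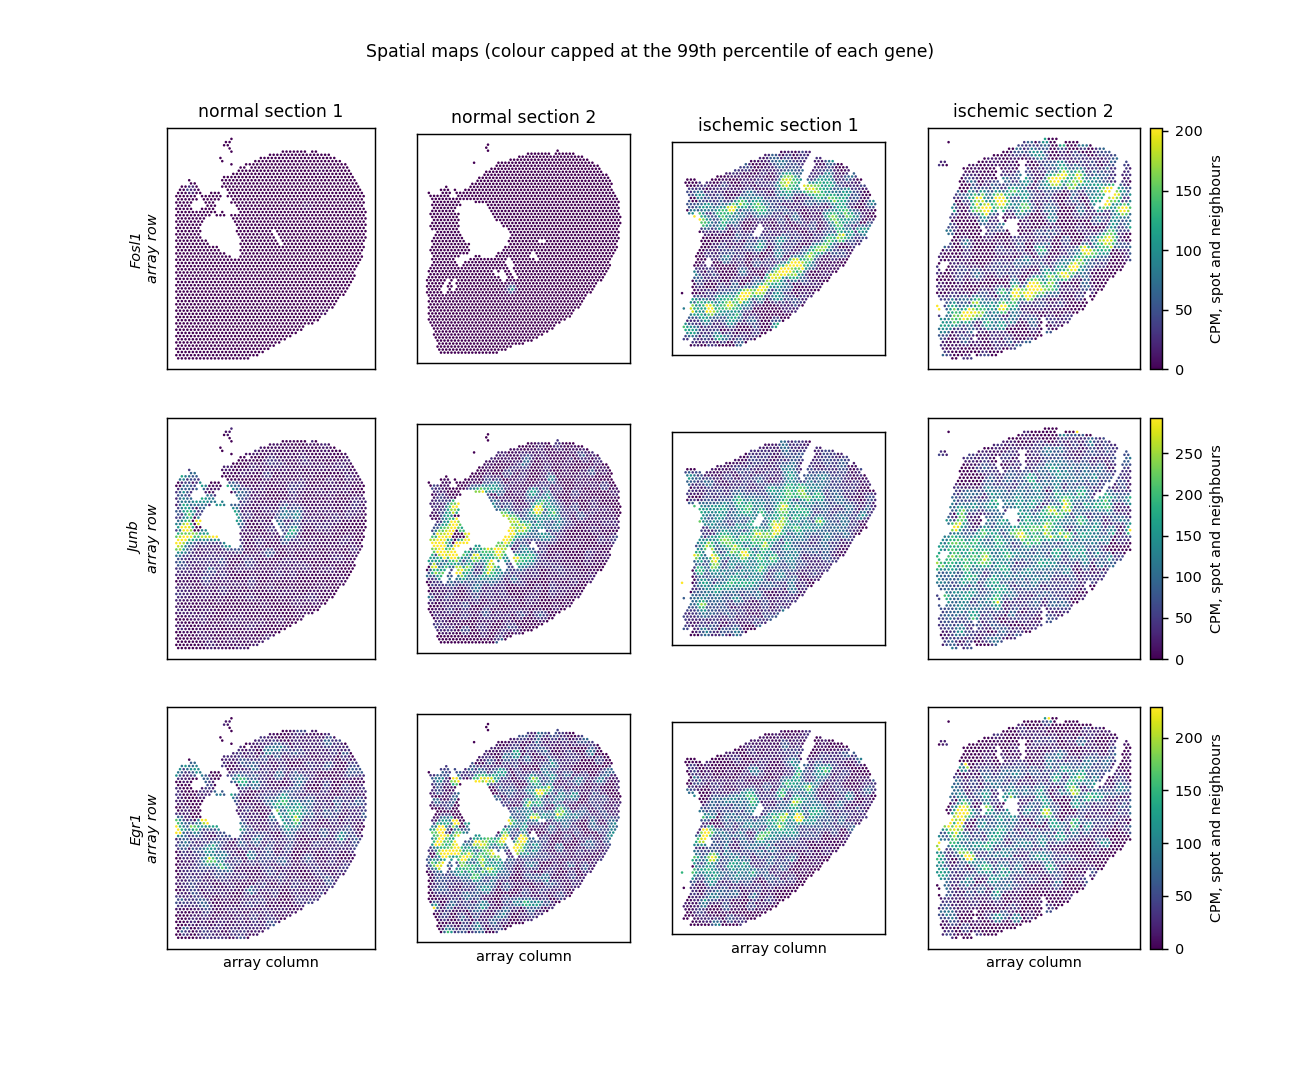
Maps of Fosl1, Junb and Egr1 in the 4 sections (array column across, array row down; colour is CPM over a spot and its neighbours, capped at the 99th percentile of each gene). Fosl1 is near 0 in both normal sections and forms a band in both ischemic sections, where the outer stripe held 121 and 125 CPM; Junb and Egr1 are brightest around the centre in normal sections and spread through the inner zones of ischemic sections.

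The genes were also compared over spots within a section, as Spearman correlations of CPM summed with the neighbouring spots. Such values share the library, the depth and the overlap of neighbouring spots, and are a description. Over the 45 pairs of the 10 genes, the median was 0.297 and 0.25 in ischemic and 0.101 and 0.0932 in normal sections. Fosl1, with 4 and 3 UMIs, and Fosb, with 22 and 20, had few counts to correlate in the normal sections. Junb with Egr1 reached 0.605 and 0.499 in ischemic and 0.346 and 0.490 in normal sections. When single spots were used, these fell to 0.228 and 0.172 in ischemic and 0.140 and 0.243 in normal sections. Fosl1 went with Myc (0.345 and 0.335) and Atf3 (0.332 and 0.312) in ischemic sections, and had 0.124 and 0.066 with Egr1.

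**Figure D5:**
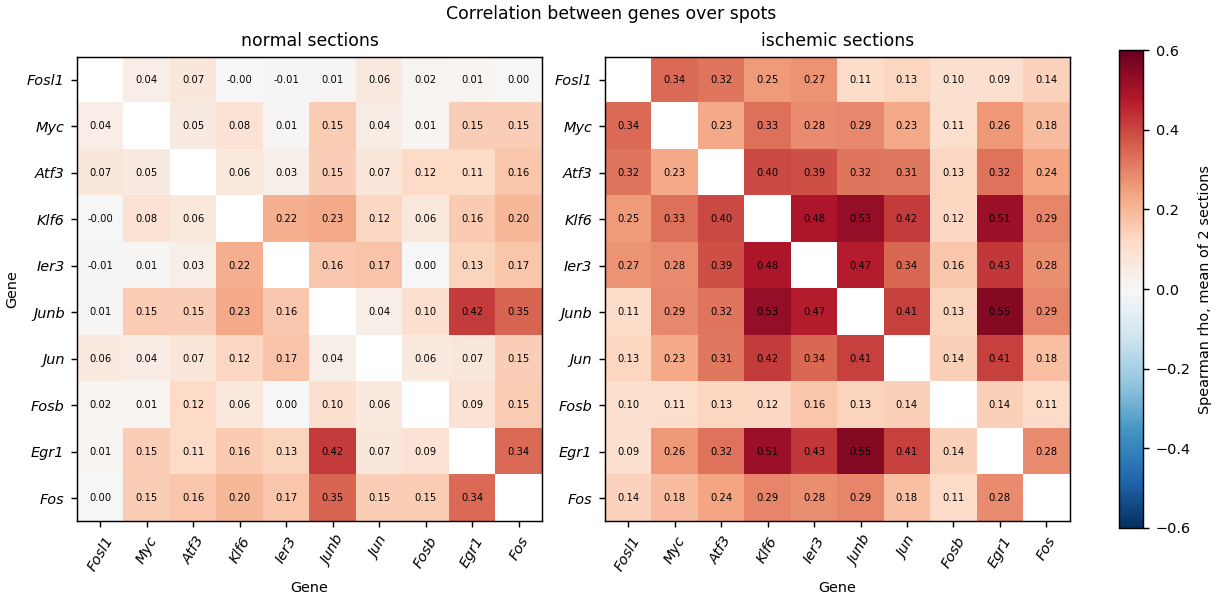
Spearman correlation between the 10 genes over tissue spots, with CPM summed over neighbouring spots, as the mean of the 2 sections of each condition; blue to red is -0.6 to 0.6. In ischemic sections Junb, Egr1, Klf6 and Ier3 form the darkest block, with Junb and Egr1 at 0.605 and 0.499 in the 2 sections, and Fosl1 has its highest values with Myc and Atf3.

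Among all genes that passed the filter, those most like each member over the spots of the 2 ischemic sections were ranked by the mean Spearman correlation. Fosl1 had Krt20 (0.684), a keratin of injured tubules, Anxa3 (0.660) and Napsa (0.652) as its nearest genes. Junb and Egr1 had the same leading genes, the metallothioneins Mt2 (0.717 and 0.665) and Mt1 (0.708 and 0.650) and then Lcn2 (0.696 and 0.646). Mt2 also led for Jun (0.518), with Mt1 (0.501) and Defb1 (0.497) next, and for Klf6 (0.627), with Tmsb10 (0.627) and Sfn (0.621) next. Ier3 was nearest to Krt18 (0.600), Arpc1b (0.585) and Anxa2 (0.583).

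Atf3 was nearest to the small heat shock genes Hspb1 (0.547) and Cryab (0.496) and to Sfn (0.485). Myc was nearest to Cryab (0.475), which is also among the inner medulla markers, S100a6 (0.451) and Anxa2 (0.440). Fos had lower values, with S100a11 (0.353), Anxa2 (0.350) and Tmsb4x (0.350), and Fosb, the scarcest member, had 0.205 with Hspb1, 0.198 with Dusp1 and 0.193 with Ccn2, too weak to be read.

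The partners and the upstream and downstream genes of AP-1 were counted over whole sections, beside the same backgrounds of 31.0% higher and 29.7% lower. Of 17 AP-1 and bZIP partners, 12 were higher and 1 lower, with a median log2 fold change of 0.59. Maff, a small MAF protein, rose by 3.54 (1.19 and 1.85 to 17.4 and 17.3 CPM), the FOS gene Fosl2 by 2.01, Cebpb by 1.96 and Atf5 by 1.73 (7.70 and 6.30 to 21.6 and 25.2 CPM), while Batf3 fell by 1.02, a call that ended with library totals. Of 31 other immediate early genes tested, 21 were higher and 2 lower (median 0.84). Egr2, a relative of Egr1, rose by 3.96 (0.434 and 0.797 to 9.98 and 8.62 CPM), Phlda1 by 2.07, Csrnp1 by 1.95 and Ier5l by 1.93. The genes that fell were Zfp36, whose protein destabilizes short-lived mRNAs (-0.57), and Gadd45g (-0.36), and with library totals neither call held.

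Of 25 MAP kinases and activators tested, 17 were higher and 3 lower (median 0.40). Mapk11 (p38 beta) rose by 1.89, Map3k1 by 1.46, Map3k8 by 1.38 and Elk3 by 1.18, and Map2k6 (-1.63), Elk1 (-0.59) and Mapk14 (p38 alpha, -0.48) were lower, which became 1 lower gene with library totals. Among 19 MAP kinase phosphatases and feedback inhibitors, which include inhibitors of other pathways, 15 were higher and 1 lower (median 0.77). Socs3, the feedback inhibitor of IL-6 signalling, rose by 4.73 (1.27 and 2.93 to 54.7 and 52.7 CPM), Dusp5 by 4.51, Spry2 by 2.64 and Dusp10 by 2.19. The gene that fell was Dusp1, the phosphatase that is itself an immediate early gene (73.6 and 97.6 to 40.8 and 38.8 CPM, -1.10).

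The MYC network list held mostly proteins that share MAX or its sites with MYC, with Zbtb17 and Fbxw7 as exceptions. It had 6 genes higher and 6 lower of 14 (median 0.02, which turned to -0.01 with RLE factors). Mycn rose by 1.18, Mlxip by 0.81, Mnt by 0.77 and Fbxw7 by 0.74. Mycl fell by 2.39 (3.28 and 4.86 to 0.677 and 0.872 CPM), Mxd3 by 1.12, Mlxipl by 0.69 and Mxi1 by 0.60. With library totals 2 were lower in place of 6. Of 26 genes known as AP-1 targets, 24 were higher and 1 lower (median 2.59, the same with genes at 0 set to their bound). Il6 and Mmp10 had no UMI in normal sections and were at least 62.9-fold and 53.6-fold higher in ischemic sections. Timp1 rose by 6.40 (2.22 and 4.89 to 288 and 298 CPM) and Lif by 5.70, while the collagenase Mmp13 fell by 2.17. These lists were chosen with earlier results of the data known, and their counts are a description.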

How the data were processed

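The authors aligned the reads with Space Ranger 1.3.0, per the file headers, to mm10, per the submitters' processing notes, and deposited, for each section, a matrix of raw counts of UMIs by gene and spot, not normalized, and the spot positions. Other sections of the study and its other assays were not analysed here. Groups came from the sample labels. The 10 genes and all gene lists were chosen with earlier results of these data known.

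UMI counts of tissue spots were summed per section, and again within each zone of a section that had at least 20 spots. Zones came from marker lists scored as log CPM over a spot and its up to 6 neighbours and standardised within the section, with pelvis limited to the top 5% of spots and at least 10 counts of its list. Sums were tested with edgeR 4.0.16 in R 4.3.3 by the quasi-likelihood test, after filterByExpr and TMM scaling, with p-values adjusted by Benjamini-Hochberg over all genes of a contrast and a threshold of 0.05. Whole sections were fitted with a term for condition, and zones with a group for each condition and zone. Zones against the cortex and interactions were fitted with a term for each section and zone effects for each condition. The fit with a group for each condition and zone had no section term, so it took the zones of a section as independent. All groups of a fit shared 1 estimate of the spread, and spots were never used as replicates. The scripts were tested on simulated data. Intervals on shares of spots are exact (Clopper-Pearson) at 95%, and those on ratios of counts are exact conditional intervals.

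Named genes were all 10 members, Havcr1 and Lcn2, up to 4 genes of each pathway list called in each direction with the largest change, and for each member the 3 genes most like it over the spots of ischemic sections. Alternatives were DESeq2 1.42.0, RLE factors or library totals, no filter, spots under 500 UMIs or the 13 mitochondrial genes left out, other zone rules, a fit for each zone, no section term, the replicate number as a block, thinning to 1000 UMIs or none, and each section left out. Coordinates are from GENCODE M21 on GRCm38 by gene identifier and promoters from RefSeq on GRCm38.p6. Figures were drawn with matplotlib 3.10.9.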

Additional observations from a re-analysis of the deposited data

Results flagged for a closer look

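The change with ischemia differed between a zone and the cortex, by the interaction test, in 19 pairs of gene and zone. As differences of log2 fold changes from the cortex, the outer stripe had 3.59 for Fosb (edgeR adjusted p = 0.0247), 2.43 for Atf3 (0.00494), 1.79 for Fos (0.00047), 1.69 for Ier3 (2.92e-07), 1.63 for Klf6 (8.18e-07), 1.43 for Jun (7.49e-07) and 1.24 for Egr1 (3.56e-05). The inner stripe had 1.47 for Jun (edgeR adjusted p = 7.69e-07), 1.15 for Klf6 (0.000102), 0.91 for Egr1 (0.000872) and 0.80 for Ier3 (0.0011). The inner medulla had 1.25 for Egr1 (edgeR adjusted p = 0.00026), 1.04 for Jun (0.000687), 0.79 for Klf6 (0.0187), 0.57 for Ier3 (0.0306) and -0.86 for Junb (0.012). The pelvis had 0.68 for Jun (edgeR adjusted p = 0.0299), -1.81 for Junb (1.96e-05) and -1.72 for Myc (0.00568).

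For Egr1 the cortex fell from 35.2 and 40.0 to 17.9 and 17.0 CPM while the outer stripe, at 37.3 and 47.3 and then 47.0 and 45 CPM, overlapped. Without TMM scaling its groups in the outer stripe did not overlap. For Jun the cortex was at 44.1 and 53.2 and then 40.9 and 42.2 CPM, and the outer stripe went from 24.4 and 32.1 to 63.5 and 65.6 CPM, so that the order of the zones was reversed. For Ier3 the order was reversed as well, from 72.0 and 90.0 CPM in the cortex above 41.7 and 54.1 CPM in the outer stripe to 100 and 105 below 186 and 204 CPM.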

How the results depend on the processing

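With 2 sections per condition, leaving out a section leaves a group with 1, which was assumed to vary like the others. Without a section in turn, the whole-section count of members higher was always 7, of members lower 0 to 2, and of all genes called 6493 to 10877. Pairs of gene and zone that were lower with ischemia ranged from 1 to 10, pairs above the cortex in ischemic sections from 19 to 31, and interactions from 7 to 20 higher and 1 to 4 lower. The log2 fold change changed sign for Egr1 over whole sections (-0.28 to 0.062), in the outer stripe (-0.15 to 0.30), inner stripe (-0.40 to 0.021) and inner medulla (-0.18 to 0.74), for Fos in the outer stripe (-0.041 to 0.68), for Atf3 (-0.73 to 3.02), Fosb (-1.09 to 2.19) and Junb (-0.057 to 0.98) in the inner medulla and for Fosb in the pelvis (-0.91 to 0.72). The interaction of Fosl1 in the outer stripe ranged from -2.24 to 2.38, and Atf3 in the normal inner medulla against the cortex from -0.72 to 3.54. Among 132 results on members, leaving out ischemic section 1 or 2 ended 35 and 28 calls without a change of sign. Leaving out normal sections 1 and 2 ended 4 and 8. The 132 also hold results that had not passed with all sections and so could not be lost, so the share of calls lost was larger.

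With library totals 0 members were lower over whole sections, and the sign turned for Egr1 over whole sections (0.14) and in the inner stripe (0.10) and for Jun in the normal pelvis against the cortex (0.077). DESeq2 gave -0.065 for Fosb in the inner medulla. Zones scored without neighbours gave -0.21 for Egr1 in the inner medulla, -0.029 for Atf3 in the pelvis and 0.37 for Ier3 in the normal inner stripe against the cortex (edgeR adjusted p = 0.0105). The fit without section terms ended 12 of 72 results on zones against the cortex and on interactions, some of which had not passed in the main fit. No result changed side or sign without spots under 500 UMIs or without mitochondrial genes. The causes were not tested.

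The share of spots with a UMI follows depth, as a mean of the 2 sections. Without thinning it was 0.132% and 34.6% for Fosl1 in normal and ischemic sections and 34.3% and 33.0% for Egr1, and at 1000 UMIs 4.93% for Fosl1 in ischemic sections and 4.36% and 5.01% for Egr1.

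The labels number the sections of each condition without saying that a number marks a shared mouse or batch, and the deviations of section 1 from the condition means correlated at 0.15 over 15305 genes, so the numbers were not taken as pairs. With the replicate block, members higher and lower stayed at 7 and 1, and genes called went from 9279 to 10089. By zone, 29 pairs were higher and 5 lower, and the calls gained were Junb (0.78) and Fos (-0.69) in the inner stripe and Ier3 in the pelvis (0.56).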

Other observations

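Other cells of the spots were followed with marker lists over whole sections, as counts of genes called by edgeR among those tested. In ischemic sections 6 of 6 injured tubule genes and 7 of 7 neutrophil genes were higher, while 8 of 8 proximal tubule, 6 of 7 T cell, 3 of 3 B cell, 4 of 4 red blood cell and 4 of 4 adipocyte genes were lower. Fibroblast genes had 4 higher and 2 lower of 6, endothelial genes 4 higher and 1 lower of 8, smooth muscle genes 3 higher and 3 lower of 6, podocyte genes 1 higher and 2 lower of 5, and macrophage and monocyte genes 1 higher and 4 lower of 11. With library totals the lower genes became 1 for macrophages and monocytes, 0 for endothelium, 2 for smooth muscle and 1 for podocytes, and the higher endothelial genes became 6. Of the zone markers, 6 of 6 cortex, 5 of 5 outer stripe, 4 of 4 inner stripe (3 with library totals) and 5 of 6 pelvis genes were lower, and the inner medulla had 2 higher and 1 lower of 5. The hemoglobin genes took 0.887% and 0.903% of the UMIs of normal and 0.0763% and 0.161% of those of ischemic sections.

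Among injured tubule genes, Lcn2 and Havcr1 had different layouts in ischemic sections. Lcn2 was at 9833 and 10900.5 CPM in the inner medulla and 1854 and 1719 CPM in the outer stripe, and Havcr1 at 445 and 312 CPM in the inner medulla and 2346 and 2445 CPM in the outer stripe. The 10 neutrophil genes summed to 184 and 157 CPM in the inner medulla and 325 and 328 CPM in the outer stripe. The outer stripe had the highest Fosl1, and the inner stripe and inner medulla had the highest Egr1.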
